A study of Mus musculus with 6 samples.

Results

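The HOXA cluster genes are the 9 genes Hoxa2, Hoxa3, Hoxa4, Hoxa5, Hoxa6, Hoxa7, Hoxa9, Hoxa10 and Hoxa11, chosen by symbol from the 27179 genes of the deposited expression table. All 9 have a row in it. They were measured by RNA sequencing of leukemia-initiating cells (LICs), the fraction of a leukemia that can start the disease again in a new host, from 3 libraries labelled WT (Asic3+/+) and 3 labelled Asic3-null (Asic3-/-). The mice were of strain C57BL/6 and are given as 8 weeks old. Both groups carry the same leukemia: Lin- fetal liver cells of either genotype were infected with an MSCV retrovirus expressing the fusion oncogene MLL-AF9 together with YFP, and were transplanted into recipients. The sequenced cells were sorted from bone marrow as YFP+Mac-1+c-Kit+. Asic3 encodes an acid-sensing ion channel, and the question of the comparison is what its loss alters in these cells. No untransduced marrow, and thus no level of these genes without MLL-AF9, is part of the series. The labels do not say whether the 3 libraries of a group came from separate mice, so p-values measure only the spread between these libraries, which may be technical.

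HOX genes encode homeodomain transcription factors that lie in clusters and are switched on in an order that follows their position on the chromosome. In blood formation the middle and posterior HOXA genes are high in stem and progenitor cells and are turned down as cells mature. MLL fusion proteins bind the cluster and keep it on, and Hoxa9 together with its cofactor Meis1 is a known driver of leukemia. The members lie on the minus strand of chromosome 6 between 52162417 and 52245810 in GRCm38, a span of 83.4 kb, with Hoxa2 at the lower and Hoxa11 at the higher coordinate.

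Levels below are RPKM (reads per kilobase of gene, scaled to the library size). They are per length, so a comparison between genes depends on the length used for each. The inferred library sizes were 1947168 to 2381861 reads, and 1 read on a 2 kb gene came to 0.21 to 0.257 RPKM. Asic3 read 1.22, 1.85 and 0.435 RPKM in the libraries labelled WT and 9.12, 4.11 and 6.58 RPKM in those labelled Asic3-null, which is the opposite of the labels' order. The Asic3 difference was 1.81 on the log2 scale (SE 0.35, limma adjusted p = 0.026), and its adjusted p was 0.0932 or 0.0768 without WT replicate 1 or 3 and 0.0981 or 0.111 without Asic3-null replicate 1 or 3. Which bases the null allele lacks is not given in the sources used here. Every direction below therefore refers to the libraries by their labels. The groups also differed in sex: the summed level of 4 Y-linked genes was 81.4 to 118 RPKM in the libraries labelled WT and 0 in those labelled Asic3-null, so that genotype label and sex cannot be told apart. Of the genes that define the sort, Itgam, which encodes the alpha chain of Mac-1, averaged 76.8 ± 18.8 RPKM (SD, n = 3) under the WT label and 14 ± 2.51 RPKM (SD, n = 3) under the Asic3-null label, and Kit averaged 11.1 ± 3.6 and 17.6 ± 3.0 RPKM. Markers of neutrophils and monocytes, taken as lists, differed by label too. All 10 tested neutrophil markers were called lower, meaning a limma adjusted p under 0.05 (summed level 3899 to 4341 RPKM under WT against 238 to 375 RPKM under Asic3-null). So were 4 of 7 monocyte markers (326 to 371 against 222 to 256 RPKM). Of all 12037 tested genes, 2.82% were called lower. No tested erythroid, B cell, stromal or endothelial marker was called. Erythroid markers summed to 2.84 to 10.3 and 0.972 to 2.41 RPKM, and T cell markers to at most 0.741 RPKM, with Cd3e, Cd4, Cd8a and Trbc2 at 0. B cell markers summed to 43.3 to 50 and 40.1 to 47.6 RPKM, nearly all of it Cd79b, with Ms4a1 at 0. Stromal and endothelial markers summed to 38 to 42.5 and 33.5 to 54.5 RPKM, mostly Pecam1, with Kdr at 0. The part of cell composition in the HOXA differences was not tested, and in bulk RNA fewer cells of a type and less RNA per cell cannot be told apart.

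To show the DNA in front of members at the top, the middle and the bottom of the range of levels, the 250 bases before the RefSeq start of Hoxa9 (highest level), Hoxa5 (the member called lower) and Hoxa11 (almost no reads) are printed 5′ to 3′ on the minus strand of GRCm38.p6, with each CpG in capitals. They are Hoxa9 at chr6:52227371-52227620, Hoxa5 at chr6:52204588-52204837 and Hoxa11 at chr6:52245811-52246060.
Hoxa9: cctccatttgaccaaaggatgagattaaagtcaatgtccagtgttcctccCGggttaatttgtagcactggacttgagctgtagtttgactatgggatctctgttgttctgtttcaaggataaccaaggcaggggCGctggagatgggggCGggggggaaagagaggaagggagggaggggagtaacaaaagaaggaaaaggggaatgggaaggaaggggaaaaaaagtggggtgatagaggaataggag
Hoxa5: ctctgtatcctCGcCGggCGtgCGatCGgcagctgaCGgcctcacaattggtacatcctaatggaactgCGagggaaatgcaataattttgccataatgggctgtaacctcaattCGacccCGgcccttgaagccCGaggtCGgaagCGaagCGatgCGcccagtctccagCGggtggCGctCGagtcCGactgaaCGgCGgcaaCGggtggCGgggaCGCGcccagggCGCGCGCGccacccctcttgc
Hoxa11: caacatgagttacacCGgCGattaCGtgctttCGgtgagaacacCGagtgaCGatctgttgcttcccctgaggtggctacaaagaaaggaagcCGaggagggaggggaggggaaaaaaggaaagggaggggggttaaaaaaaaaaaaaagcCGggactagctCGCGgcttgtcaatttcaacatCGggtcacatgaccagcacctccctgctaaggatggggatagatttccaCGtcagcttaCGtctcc
The Hoxa5 window held 28 CpGs and the Hoxa9 window 3, while that of Hoxa11, which had almost no reads, held 13. Over 32851 RefSeq windows of the same length the median was 6 CpGs and the quartiles were 2 and 16, and 92.4% of windows had fewer than the Hoxa5 window. RefSeq gave 9 windows for 8 of the 9 members. The other 6 held 18 CpGs at Hoxa3, 24 at Hoxa6, 6 at Hoxa2, 7 at Hoxa7, and 7 and 20 at the 2 starts of Hoxa10. The CpG count thus did not follow the order of RNA levels given next. The letters TGACAG, the core bound by MEIS proteins, were searched on both strands and were present in the Hoxa2 and Hoxa3 windows, against 15.9% of all windows. TGATNNAT, the letters bound by HOX-PBX pairs, was present in the Hoxa2 window, against 7.68% of all windows. The Hoxa2 matches do not overlap each other. A match is a description of the letters only.

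Levels formed a block in the middle of the cluster, from Hoxa5 to Hoxa10, with low values on both sides. Hoxa9, the HOX gene most often tied to MLL-rearranged leukemia, was the highest member in all 6 libraries, at 73.5, 73.5 and 87.8 RPKM under the WT label and 67.1, 42.3 and 48.9 RPKM under the Asic3-null label. Hoxa7, its neighbor toward the anterior side, read 33.1, 34.2 and 26.6 RPKM against 27.7, 22.8 and 24.9 RPKM. Hoxa7 was second in 5 libraries, and in WT replicate 3 it came behind Hoxa5. Hoxa5, Hoxa6 and Hoxa10 filled ranks 3 to 5 in the other libraries. Together the 5 genes Hoxa5, Hoxa6, Hoxa7, Hoxa9 and Hoxa10 held between 91.8% and 96.4% of the summed RPKM of the members. On the anterior side, Hoxa3 ranked sixth in all 6 libraries and Hoxa2 and Hoxa4 shared ranks 7 and 8. On the posterior side the level ended sharply: Hoxa11, next to Hoxa10, ranked ninth in every library. It had 0, 1 and 2 reads under the WT label and 0, 1 and 3 reads under the Asic3-null label. Hoxa13, the last gene of the cluster, and Evx1 beyond it had no read.

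**Figure D1:**
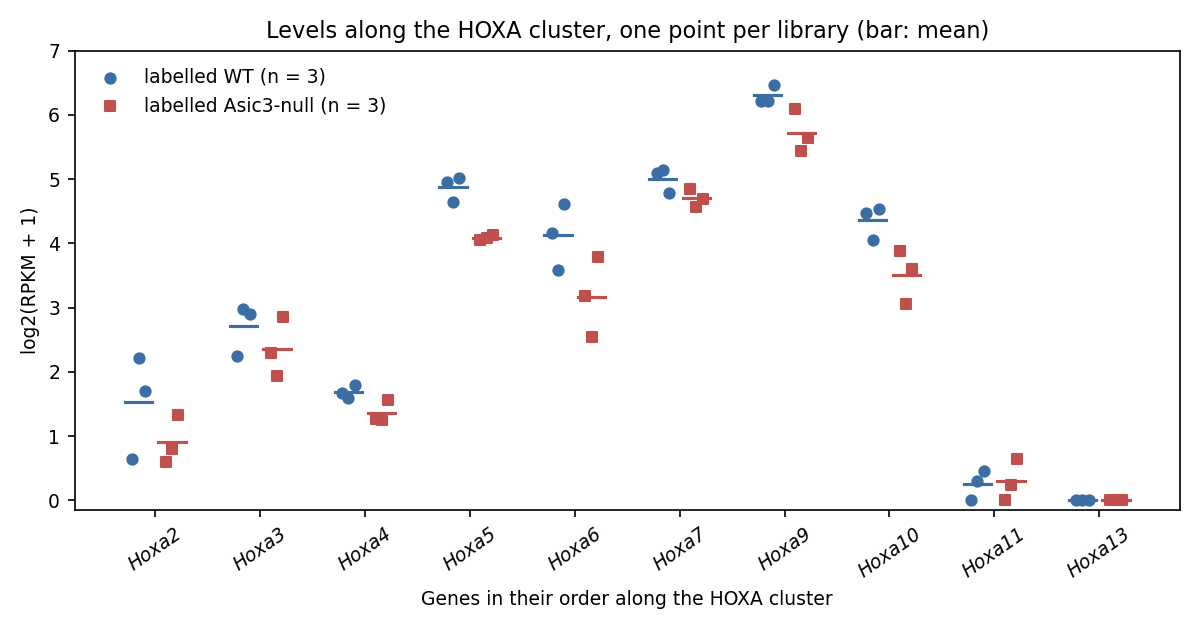
Level of each HOXA gene as log2(RPKM + 1), in the order of the genes along the cluster from Hoxa2 to Hoxa13, with 1 point per library (circles, 3 labelled WT; squares, 3 labelled Asic3-null) and a bar at each group's mean. The high points run from Hoxa5 to Hoxa10 with the top at Hoxa9, and Hoxa11 and Hoxa13 lie at or near 0 in both groups.

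Some neighbors in the order of levels could not be separated, since their ranges over libraries overlapped. Under the WT label these were Hoxa7 and Hoxa5, Hoxa10 and Hoxa6, and Hoxa4 and Hoxa2. Under the Asic3-null label they were Hoxa10 and Hoxa6, Hoxa6 and Hoxa3, Hoxa4 and Hoxa2, and Hoxa2 and Hoxa11. Hoxa9 and Hoxa7 did not overlap in either group. The order also depends on the gene lengths behind the RPKM, which differ from the bases that all annotated exons cover in GENCODE M21. The lengths implied by the table against those exon bases were 2272 against 5580 for Hoxa9, 2543 against 6014 for Hoxa3 and 1952 against 2876 for Hoxa7. For Hoxa6 they were 699 against 874, and 699 is its coding length. With the GENCODE lengths, an alternative chosen after seeing the data, Hoxa9 was the highest member in 5 of 6 libraries and Hoxa5 in WT replicate 1. Hoxa5 was then second in 3 libraries and Hoxa7 in 2, and Hoxa3 was sixth in 3 libraries rather than 6, while Hoxa11 was ninth in all 6 under both sets of lengths. Hoxa5 to Hoxa10 then held 92% to 96.5% of the sum. Differences between the groups for a single gene do not involve its length, apart from the pseudocount.

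The other HOX clusters were nearly silent. Of 28 genes of the HOXB, HOXC and HOXD clusters, 23 had no read in any library, and the 28 together had 40 reads against 4293 for the 9 HOXA members. Hoxb4, which promotes the expansion of blood stem cells, had 35 of the 40 reads. It read 0.741, 0.6 and 0.823 RPKM under the WT label and 1.35, 0.818 and 1.66 RPKM under the Asic3-null label, so the groups overlapped (log2 difference 0.39, limma adjusted p = 0.451 in the fit with no filter on low values). None of the 28 reached a mean of 1 RPKM over the 6 libraries. Of 3 Cdx genes, which switch on HOX genes in the embryo and in some leukemias, Cdx1 and Cdx4 had no read and Cdx2 had 3 reads, all under the WT label.

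**Figure D2:**
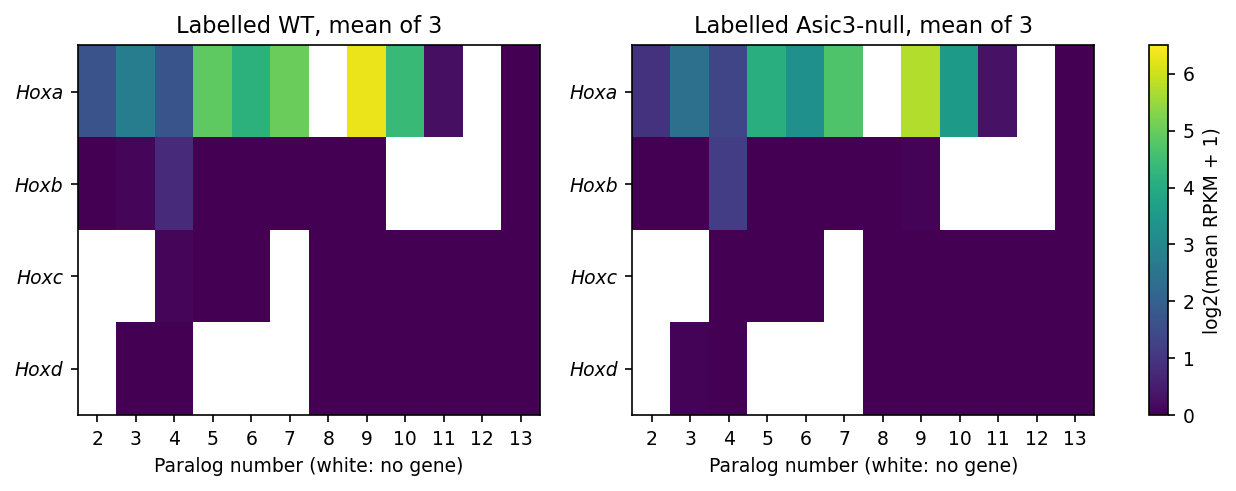
Mean level of each HOX gene as log2(mean RPKM + 1) for the 3 libraries labelled WT (left) and the 3 labelled Asic3-null (right), with clusters as rows and paralog numbers 2 to 13 as columns (white, no such gene). The Hoxa row is bright from paralog 5 to 10, and outside it Hoxb4 alone stands out from 0, at a mean of 0.722 RPKM on the left and 1.27 RPKM on the right.

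Between the labels, all 8 members that passed the filter of a mean of 1 RPKM had a lower mean in the libraries labelled Asic3-null, and 1, Hoxa5, was called. Hoxa11 did not pass the filter, and Hoxa2 passed it only through its higher level under WT (2.16 ± 1.55 against 0.928 ± 0.526 RPKM, SD, n = 3 each). The other 7 had a mean of at least 1 RPKM in both groups. The background for these counts is the fit over 12037 genes, of which 340 or 2.82% were called lower at a limma adjusted p under 0.05, and 45.5% had a log2 fold change below 0. The median log2 fold change was -0.58 over those 7 and -0.60 with Hoxa2, against 0.034 over all tested genes.

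Hoxa5, a middle gene of the cluster with roles in myeloid and lung development, read 30.2, 24.1 and 31.3 RPKM in the libraries labelled WT and 15.6, 15.9 and 16.6 RPKM in those labelled Asic3-null. The groups did not overlap, and the 3 Asic3-null values lay within a narrow band. Hoxa5 averaged 28.5 ± 3.87 RPKM under WT against 16 ± 0.476 RPKM under Asic3-null (SD, n = 3 each), a ratio of 0.562. On log2(RPKM + 1) Hoxa5 fell by 0.78 (SE 0.15, 95% interval -1.13 to -0.44, limma adjusted p = 0.0287). The reads behind it were 119, 88 and 139 against 68, 71 and 73, and no other annotated gene shares its exons. The call held without WT replicate 2 (adjusted p = 0.0453 with limma). It was lost without WT replicate 1 (0.111), WT replicate 3 (0.105), Asic3-null replicate 1 (0.0904), replicate 2 (0.0756) or replicate 3 (0.0999), with the log2 fold change between -0.90 and -0.72 throughout.

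The posterior genes Hoxa9 and Hoxa10 had lower values under the Asic3-null label without passing the adjusted test. Hoxa9 averaged 78.2 ± 8.25 RPKM under WT and 52.8 ± 12.8 RPKM under Asic3-null (SD, n = 3 each), a log2 difference of -0.58 (SE 0.18, 95% interval -0.99 to -0.17, limma adjusted p = 0.151). Its groups did not overlap, although Asic3-null replicate 1 at 67.1 RPKM lay close to the lowest WT value of 73.5 RPKM. Hoxa10, which is co-expressed with Hoxa9 in immature myeloid cells, read 21.3, 15.7 and 22.2 RPKM under WT and 13.7, 7.35 and 11.1 RPKM under Asic3-null. The highest Asic3-null value of Hoxa10 was below the lowest WT value. Hoxa10 averaged 19.7 ± 3.53 RPKM against 10.7 ± 3.21 RPKM (SD, n = 3 each), a log2 difference of -0.85 (SE 0.24, 95% interval -1.38 to -0.31, limma adjusted p = 0.112). With limma-voom on the recovered reads Hoxa10 passed, at an adjusted p of 0.0486. Over the cluster, 4 of the 8 tested members (Hoxa4, Hoxa5, Hoxa9 and Hoxa10) were lower without overlap, against 11.4% of all tested genes. Hoxa5, Hoxa6, Hoxa9 and Hoxa10 had an unadjusted limma p under 0.05, against 9.45% of all tested genes that did so with a lower level. For a single gene the two-sided exact permutation test of 3 against 3 libraries cannot go below p = 0.10, which those 4 genes without overlap reached.

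Hoxa6 and Hoxa7, which lie between Hoxa5 and Hoxa9, had groups that overlapped. Hoxa6 read 17, 11 and 23.6 RPKM under WT and 8.03, 4.81 and 12.8 RPKM under Asic3-null, where Asic3-null replicate 3 lay above WT replicate 2. It had the widest interval of the block from Hoxa5 to Hoxa10, -1.75 to -0.17 around a log2 difference of -0.96 (SE 0.35, limma adjusted p = 0.222), on 8 to 39 reads per library. Hoxa7, by contrast, had over 100 reads in each library and the smallest difference of the block. It averaged 31.3 ± 4.11 RPKM against 25.1 ± 2.44 RPKM (SD, n = 3 each), a log2 difference of -0.30 (SE 0.16, 95% interval -0.66 to 0.048, limma adjusted p = 0.381). Asic3-null replicate 1 at 27.7 RPKM lay above WT replicate 3 at 26.6 RPKM. The counting tool is not named and the library kit does not mark strand, and 20.4% of the annotated exon bases of Hoxa7 are shared with the antisense gene Hoxaas3, so reads of the pair cannot be told apart there.

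The anterior genes Hoxa2, Hoxa3 and Hoxa4 did not pass the test. Hoxa3, which patterns the pharyngeal region in the embryo, read 3.74, 6.87 and 6.48 RPKM under WT and 3.91, 2.81 and 6.2 RPKM under Asic3-null. Its groups overlapped (log2 difference -0.35, SE 0.30, limma adjusted p = 0.615), and its difference was -0.58 and -0.22 without WT replicates 1 and 2 and -0.14 and -0.60 without Asic3-null replicates 2 and 3. Antisense genes share 25.4% of its annotated exon bases, 16% of those of Hoxa4 and 35% of those of Hoxa11. The same-strand gene Gm28308 shares 15% of those of Hoxa2 and 8.01% of those of Hoxa3. Hoxa4 read 2.18, 2.02 and 2.49 RPKM under WT and 1.41, 1.37 and 1.95 RPKM under Asic3-null. These groups did not overlap, but each value rests on 5 to 9 reads (log2 difference -0.33, SE 0.25, limma adjusted p = 0.563). Hoxa2, the most anterior member, read 0.566, 3.67 and 2.26 RPKM under WT and 0.514, 0.749 and 1.52 RPKM under Asic3-null, from 2 to 12 reads per library. WT replicate 1 lay within the Asic3-null range (log2 difference -0.61, SE 0.43, limma adjusted p = 0.529), and the difference was -1.05 without it and -0.26 without WT replicate 2. For Hoxa11, with 7 reads in all, no difference was detectable at this depth (0.046, SE 0.20, limma adjusted p = 0.939 in the fit with no filter).

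**Figure D3:**
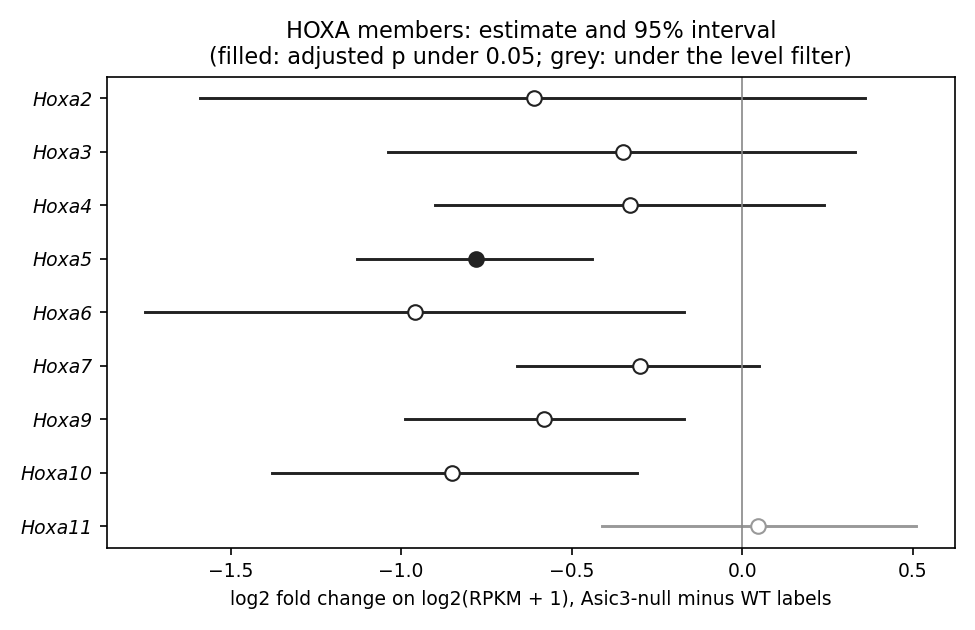
Difference of each HOXA member on log2(RPKM + 1), libraries labelled Asic3-null minus those labelled WT, with its 95% interval from limma (3 libraries against 3). The 8 black points lie below 0, the filled point (Hoxa5) passed the adjusted threshold of 0.05, and the grey point is Hoxa11, which was under the level filter.

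Summed over the 9 members, the level was 182, 171 and 203 RPKM in the libraries labelled WT and 138, 98.3 and 124 RPKM in those labelled Asic3-null. Every Asic3-null sum was below every WT sum, and the mean of 120 ± 20.2 RPKM was 0.649 of the WT mean of 185 ± 16.2 RPKM (SD, n = 3 each). Shares of the sum overlapped between the groups for 8 of the 9 members. Hoxa9 took 40.5%, 42.9% and 43.2% of it under WT and 48.6%, 43.1% and 39.3% under Asic3-null. The share of Hoxa5 averaged 15.4% ± 1.27 and 13.6% ± 2.43 (SD, n = 3 each). That of Hoxa7 averaged 17.1% ± 3.57 and 21.1% ± 1.84 (SD, n = 3 each), and its groups were separated by only 0.0025 percentage points, far less than the spread within either.

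**Figure D4:**
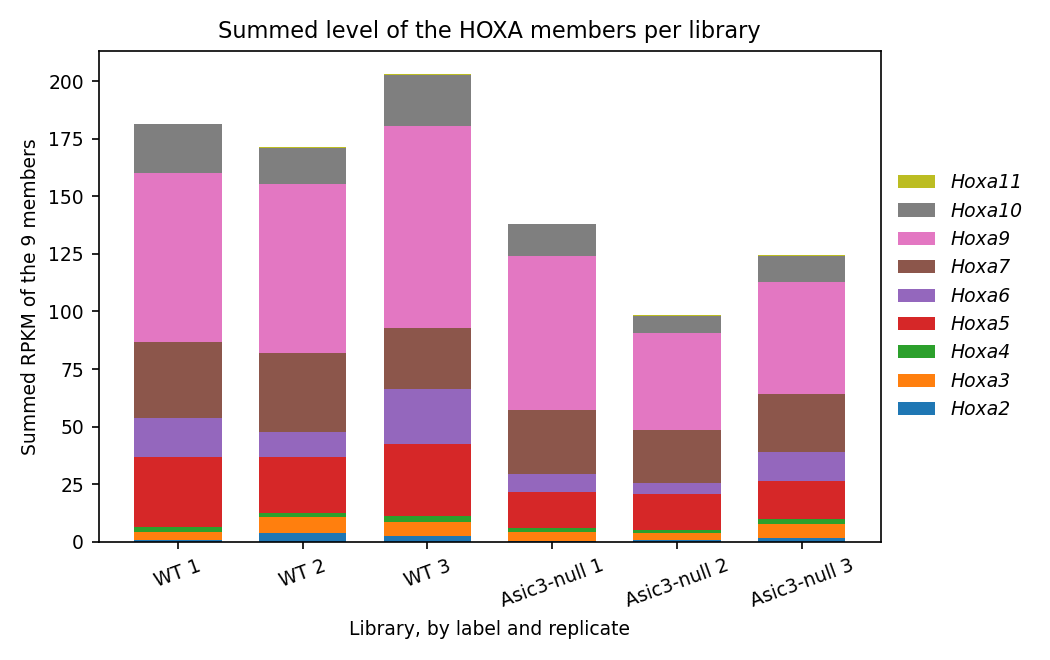
Summed RPKM of the 9 HOXA members in each library, stacked by gene, for the 3 libraries labelled WT and the 3 labelled Asic3-null. The WT bars reach 171 to 203 RPKM and the Asic3-null bars 98.3 to 138 RPKM, with Hoxa9 the thickest layer in each.

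Ratios between members within a library were compared for 5 pairs. The ratio of Hoxa5 to Hoxa7 was 0.91, 0.704 and 1.18 under WT and 0.566, 0.697 and 0.666 under Asic3-null, which did not overlap, by a margin of less than the spread of either group (two-sided exact permutation p = 0.10, the smallest that 3 against 3 libraries allow). The other 4 ratios overlapped. Hoxa9 to Hoxa10 averaged 4.03 ± 0.623 and 5.01 ± 0.688, Hoxa9 to Hoxa5 averaged 2.76 ± 0.309 and 3.3 ± 0.866, Hoxa9 to Hoxa7 averaged 2.55 ± 0.644 and 2.08 ± 0.302, and Hoxa10 to Hoxa7 averaged 0.645 ± 0.187 and 0.422 ± 0.0899 (SD, n = 3 each). Their exact permutation p-values were 0.20, 0.50, 0.40 and 0.20. Over all 6 ratios computed, including that to Meis1 below, none can pass a correction with this permutation test.

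Meis1, the cofactor that binds DNA with HOXA9 and PBX proteins, went the other way. It read 14.2, 14.9 and 14 RPKM under WT and 21.7, 28.2 and 35.3 RPKM under Asic3-null, with no overlap. Meis1 rose by 0.91 on the log2 scale (SE 0.19, 95% interval 0.48 to 1.33, limma adjusted p = 0.0367), against 0.523% of all tested genes called higher. That call held without Asic3-null replicate 1 (limma adjusted p = 0.0281) and was lost without any other library, at 0.128, 0.116 and 0.112 without WT replicates 1, 2 and 3 and at 0.102 and 0.136 without Asic3-null replicates 2 and 3. It was also lost with no filter on low values (0.0644), with no intensity trend (0.0628), with the replicate number as a block (0.0761) and on untransformed values (0.285), so that Meis1 passed in 6 of 15 alternatives. Within libraries, the ratio of Hoxa9 to Meis1 was 5.16, 4.92 and 6.27 under WT and 3.09, 1.5 and 1.39 under Asic3-null. The ratio did not overlap between groups, with means of 5.45 ± 0.72 and 1.99 ± 0.952 (SD, n = 3 each, two-sided exact permutation p = 0.10).

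Of the 9 TALE homeodomain genes that supply HOX cofactors (MEIS, PBX and PKNOX), 5 were tested, and 1 was called, which was Meis1. Pbx3, a partner of HOXA9 in leukemia and the highest of them, averaged 58.4 ± 3.1 and 60.2 ± 12.2 RPKM (SD, n = 3 each; log2 difference 0.024, 95% interval -0.36 to 0.40, limma adjusted p = 0.965), and its sign turned when single libraries were left out. Pbx4 read 5.33 to 6.71 RPKM under WT and 7.79 to 10.1 RPKM under Asic3-null without overlap, at an adjusted p of 0.202 with limma. Pbx2 differed by 0.20 and Pknox1 by -0.20 on the log2 scale (limma adjusted p = 0.613 and 0.697), with ranges of 0.05 to 0.30 and -0.34 to -0.041 as each library was left out, lowest in size without Asic3-null replicate 1 for Pbx2 and without WT replicate 1 for Pknox1. The other 4 were under the level filter and were not tested.

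Regulators of the cluster did not pass the test. Of all 12037 tested genes, 403 were called by limma and 543 by limma-voom. Lists of 19 and 15 genes are too short for 0 calls to set them apart from that share. Among 19 genes of the MLL complex and its fusion partners, all tested, 0 were called by limma or by limma-voom and 3 had an unadjusted p under 0.05, near the 15.9% of all tested genes that had one in either direction. These were Mllt10 (22.0 ± 3.68 and 36.8 ± 8.37 RPKM, adjusted p = 0.125 with limma) and Mllt1 (16.7 ± 3.65 and 25.1 ± 3.0 RPKM, adjusted p = 0.192), both fusion partners of MLL, and Ash2l, a core subunit (52.1 ± 7.89 and 39.1 ± 7.23 RPKM, adjusted p = 0.298). The median log2 fold change of the 19 was 0.11. Among 15 Polycomb genes, whose complexes silence HOX clusters, 0 were called by limma or by limma-voom and 3 had an unadjusted p under 0.05, also near that 15.9%, with a median log2 fold change of 0.11. Bmi1, a subunit of Polycomb repressive complex 1, read 11.2, 12.4 and 13.4 RPKM under WT and 19.8, 18.1 and 18.8 RPKM under Asic3-null. Its groups did not overlap and its log2 difference was 0.58 (SE 0.15, limma adjusted p = 0.0848). Ezh2, the methyltransferase of complex 2, differed by 0.47 (adjusted p = 0.278) and Cbx7 by -0.60 (adjusted p = 0.298) in the same limma fit, both with overlap. They differed by 0.31 without Asic3-null replicate 2 and by -0.34 without WT replicate 1, respectively.

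Of 10 genes known as targets of HOXA9 and MEIS1, all tested, 1 was called lower and 0 higher, against 2.82% and 0.523% of all tested genes. Id2, an inhibitor of basic helix-loop-helix factors, read 201, 141 and 125 RPKM under WT and 53.6, 31.7 and 31.8 RPKM under Asic3-null. The groups were far apart, and Id2 fell by 1.98 on the log2 scale (SE 0.24, limma adjusted p = 0.00302). The other 9 did not pass, 8 of them with a log2 fold change above 0, as 54.5% of all tested genes had, and the list's median was 0.27. Myb, which keeps progenitors immature, averaged 181 ± 30.2 and 231 ± 21.8 RPKM without overlap (log2 difference 0.35, limma adjusted p = 0.297), and Flt3, a cytokine receptor, averaged 157 ± 30.8 and 196 ± 18.8 RPKM (0.33, limma adjusted p = 0.358). Without WT replicate 3 these differences were 0.21 for Myb and 0.17 for Flt3.

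Around the cluster, 9 protein-coding genes of the table lie within 1 Mb, 6 of them were tested, and 0 were called by limma or by limma-voom. With 403 of all 12037 tested genes called by limma, 0 calls among 6 genes does not set them apart. Of the 6, 1 (Hibadh) had an unadjusted p under 0.05, near the 15.9% of all tested genes that had one. Being higher without overlap, as Hibadh was, held for 11.2% of all tested genes, and being lower without overlap, as Snx10 was, for 11.4%. The nearest tested gene on the Hoxa2 side, Skap2, at 150 kb, read 78.1, 88 and 118 RPKM under WT and 104, 108 and 106 RPKM under Asic3-null (log2 difference 0.18, adjusted p = 0.621 with limma). That difference was 0.056 without WT replicate 1 and 0.35 without WT replicate 3. The nearest tested gene on the Hoxa13 side, Hibadh, a mitochondrial dehydrogenase at 300 kb, read 20, 25.5 and 26.3 RPKM under WT and 34.4, 36.1 and 35.6 RPKM under Asic3-null, higher without overlap (0.55, adjusted p = 0.0979 with limma). Snx10 was lower without overlap (-0.25, adjusted p = 0.48 with limma; -0.16 without WT replicate 1). The other 3 were Hnrnpa2b1 at -0.092, Cbx3 at 0.30 and Tax1bp1 at 0.10 on the log2 scale. Within the cluster, the antisense gene Hoxaas3 averaged 5.83 ± 2.42 and 4.42 ± 2.41 RPKM (SD, n = 3 each; limma adjusted p = 0.697), from 5 to 15 reads per library. The row of the Mir196b hairpin, between Hoxa9 and Hoxa10, had 0 to 3 reads per library and says nothing of the mature miRNA. Hoxa11os had 2 reads in all.

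Across the 6 libraries, the genes whose log2(RPKM + 1) followed Hoxa9 most closely were looked up among 7261 genes with a mean of at least 10 RPKM. They were Nuak2 (Pearson r = 0.984), Il6ra (0.979), Stx11 (0.976), a gene without a symbol in RefSeq (Entrez 100862201, 0.971) and Mboat7 (0.967), and 23 genes had r above 0.95. Hoxa10 followed with r = 0.948 at rank 26, while Hoxa5 (0.802, rank 333), Hoxa6 (0.758, rank 468) and Hoxa7 (0.682, rank 752) were farther down. The 6 points share the group labels and their libraries, so these values are descriptions. Il6ra, the interleukin-6 receptor, read 46.5, 46.2 and 49.2 RPKM under WT and 40, 30 and 35.2 RPKM under Asic3-null, the same order of libraries as Hoxa9 under the Asic3-null label.

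**Figure D5:**
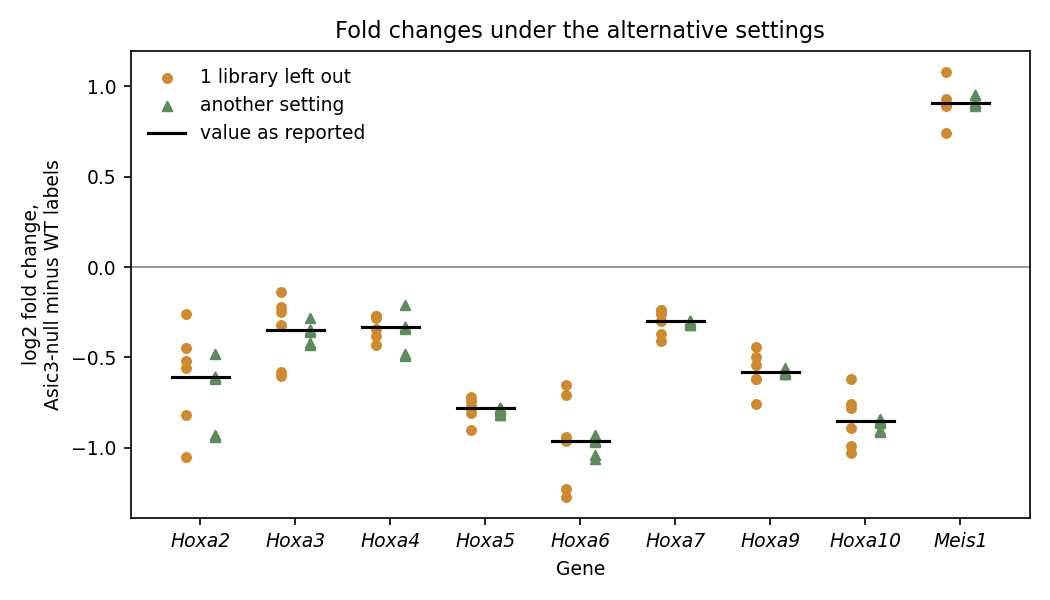
Log2 fold change of the 8 tested HOXA members and of Meis1 (libraries labelled Asic3-null minus WT) as reported (line), with each of the 6 libraries left out in turn (circles) and under the other settings on a log2 scale (triangles). Each HOXA point lies below 0, between -1.27 and -0.14, and each Meis1 point above it, between 0.74 and 1.08.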

How the data were processed

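RNA was extracted with Trizol from sorted cells and libraries were made by the TruSeq RNA v2 protocol. The authors called bases with CASAVA 1.8.2, mapped to GRCm38 with TopHat2 2.0.12 (submitters' processing notes) and deposited a table of RPKM. The counting tool, annotation and library size are not given in the sources used here. Groups and replicate numbers came from the sample titles. Symbols and positions were taken from RefSeq (GRCm38.p6), which named 25275 of 27179 genes, and exon overlaps from GENCODE M21.

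Library size and whole reads were inferred from the steps of the RPKM values: all 16825 genes above 0 gave whole reads within 0.0001, and these made up 99.62% to 99.65% of the inferred size. They carry no molecular identifiers. Genes with a mean of at least 1 RPKM over 6 libraries (12037) were tested with limma 3.58.1 (R 4.3.3) after the transform log2(RPKM + 1) (intensity trend, group label only, Benjamini-Hochberg adjustment over all tested genes, threshold 0.05, two-sided). The pseudocount makes fold changes of low genes smaller. "Without overlap" means that every library of a group lay below every library of the other. Single values were compared by two-sided exact permutation. The script was tested on simulated data.

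Some genes are not reported here. Named genes were the members, other listed genes of the cluster, HOX genes with a mean of at least 1 RPKM, called genes or up to 3 with the lowest p of the cofactor, MLL, Polycomb and target lists, tested neighbors within 1 Mb, the 5 genes most like Hoxa9, and the label and gate checks. Hoxb4, the Cdx genes, Pbx2, Pbx3, Pknox1, Myb and Flt3 were named beyond this rule where needed to describe a list. The members and lists were chosen with earlier results of these data known. Alternatives were another pseudocount, other filters, 2 scalings, no trend, untransformed values, limma-voom on recovered reads, a replicate block, each library left out and, added later, GENCODE exon lengths.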

Additional observations from a re-analysis of the deposited data

How the results depend on the processing

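The 8 tested HOXA members stayed below 0 under every alternative that could be fitted (15 for Hoxa5, Hoxa6, Hoxa7, Hoxa9 and Hoxa10; 14 for Hoxa2, Hoxa3 and Hoxa4, which are under the filter of 5 RPKM). Some of these alternatives could not turn a sign. The other filters, no intensity trend and the replicate block leave each fold change as reported. For Hoxa4, Hoxa5, Hoxa9 and Hoxa10, whose groups do not overlap, leaving out 1 library cannot turn it either. Hoxa5 passed the threshold in 8 of 15, Hoxa10 in 1 and the other 6 in 0. The number of HOXA members called was 1 as reported, 0 on untransformed RPKM without moderation, 2 with limma-voom, and 0 to 1 as each library was left out. The number of all genes called was 403 as reported, 543 with limma-voom, 4 untransformed and 172 to 258 with a library left out. Of the other lists (cofactors, MLL, Polycomb, targets) 2 genes were called as reported, 1 with no filter on low values, 1 with no intensity trend, 0 untransformed and 1 to 2 with a library left out. The cause of these changes was not tested, except that fewer libraries entered the fits with 1 left out. Pbx3 turned to -0.012 without WT replicate 3, -0.065 without Asic3-null replicate 1 and -0.064 without Asic3-null replicate 3, within a range of -0.065 to 0.20 as each library was left out.

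Same-numbered libraries deviated from their group means with correlations of 0.06, -0.06 and -0.12. Differently numbered libraries had correlations of -0.07 to 0.14. These values do not exclude an effect on single genes that same-numbered libraries share. With the replicate number as a block, 246 genes, 0 HOXA members and 1 gene of the other lists were called. The limma adjusted p of Hoxa5 rose from 0.0287 to 0.0784 and that of Meis1 from 0.0367 to 0.0761. The adjusted p fell for Hoxa6 from 0.222 to 0.0535 (SE 0.35 to 0.18) and for Hoxa10 from 0.112 to 0.0792 (SE 0.24 to 0.18). It also fell for Hoxa2 (0.529 to 0.519), and rose for Hoxa3, Hoxa4, Hoxa7 and Hoxa9.

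Hoxa2 and Hoxa4 rest on 2 to 12 reads per library and Hoxa11 on 0 to 3. With GENCODE exon lengths, chosen after seeing the data, Hoxa9 was the highest member in 5 libraries in place of 6.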
